A study of Mus musculus with 768 samples.

Results

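Leukocytes were the cells of the immune system that turned up in single-cell RNA libraries made from sorted mouse mammary cells. A kept cell was called a leukocyte when at least 3 of the 5 genes Ptprc, Cd53, Arhgdib, Coro1a and Laptm5 reached 20 CPM, where CPM is reads of a gene scaled to a common total of all reads of that cell. Within these cells, Cd79a or Ms4a1 at 20 CPM called a B cell, Cd3d or Cd3g a T cell, and C1qb or Csf1r a macrophage. Of 617 kept cells, 76 were leukocytes, 24 from the control plate and 52 from the N1ICD-EGFP plate. The cells were thus chosen by their levels of 11 genes, and those levels are given as a description only.

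Mammary cells of C57BL/6 mice were sorted singly into 384-well plates, and full-length cDNA libraries were made by Smart-Seq2, which carries no molecular barcodes, so that every value is a number of reads. The control plate holds cells of mice labelled WAP-CRE; R26-tdTomato. The second plate holds cells of mice labelled WAP-CRE; R26-N1ICD-EGFP, in which N1ICD is the active intracellular part of the Notch1 receptor and comes with the green reporter EGFP. Each genotype was 1 plate with no animal named, so there is 1 sample per group, no test between them was possible, and genotype, plate and reporter cannot be told apart. In both, Cre was driven by Wap, the promoter of a milk protein gene that is active in luminal alveolar cells of the pregnant and lactating gland, and the recombined locus was Rosa26. Inguinal glands were dissociated with an enzyme kit for tumour tissue, and cells positive for GFP or tdTomato were collected. The series text gives a span of months beside the word lactation. Whether it is an age, a time since lactation or a length of lactation is unclear. Such a gate selects epithelium, and leukocytes found in it are cells that neither the driver nor the gate was made for.

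The mammary gland holds resident leukocytes throughout life. Macrophages lie along the ducts and alveoli, take up dying cells during involution after weaning, and present antigen; B and T cells lie in the stroma and between the epithelial cells. Ptprc encodes CD45, the phosphatase found on nearly all leukocytes. Cd79a is the signalling chain of the B cell receptor and Ms4a1 encodes CD20. Cd3d and Cd3g are chains of the T cell receptor complex, C1qb is a chain of complement C1q, which tissue macrophages secrete, and Csf1r is the receptor for the growth factor that macrophages depend on.

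Leukocytes made up 7.19% of the kept control cells (95% Clopper-Pearson interval 4.66 to 10.5%) and 18.4% of the kept N1ICD-EGFP cells (14.04 to 23.4%). These and all later intervals cover counting error only, since cells and PCR reads of 1 plate are not independent replicates. The higher share was found in both sides of the plate, which are parts of the same plates and no replicates. In well columns 1 to 12 it was 8.57% (4.877 to 13.74%) and 17.4% (11.56 to 24.55%), and these intervals overlap. In columns 13 to 24 it was 5.66% (2.621 to 10.47%) and 19.4% (13.21 to 26.99%), which do not. The plates also differed in how many wells were kept, 86.98% of the control wells and 73.7% of the N1ICD-EGFP wells. A share of sorted cells depends on how the gate was drawn and on how well each cell type survived dissociation, and the part of either was not tested.

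Most kept cells had either none or all of the 5 leukocyte genes at 20 CPM, as levels of the genes that chose them. None of the 5 was at 20 CPM in 87.7% of kept control cells and 77.4% of kept N1ICD-EGFP cells, and all 5 were in 20 and 37 cells. Only 1 control and 4 N1ICD-EGFP members lay just inside the threshold with 3 genes. The control cell among them, in well I2, had Cd53 at 45.83, Arhgdib at 1818 and Laptm5 at 886.1 CPM. The member in N1ICD-EGFP well O11 had Cd53 at 1879.9, Arhgdib at 682.3 and Laptm5 at 831.1 CPM. Just outside lay 1 cell of each plate with 2 genes: control well M4 had Coro1a at 559.8 and Laptm5 at 2962.4 CPM, and N1ICD-EGFP well K24 had Cd53 at 50.23 and Coro1a at 29.08 CPM. A further 16 control and 11 N1ICD-EGFP cells had 1 of the 5 genes. Among cells that were no members, C1qb and Csf1r together reached up to 6251.4 CPM in the control and 533 CPM in the N1ICD-EGFP plate. Whether the rule missed leukocytes was not tested.

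B cells, T cells and macrophages accounted for 65 of the 76 members. B cells numbered 3 among the control members and 21 among the N1ICD-EGFP members, T cells 7 and 10, and macrophages 10 and 14. A further 3 and 6 cells had none of the lineage genes at 20 CPM, and 1 cell of each plate had genes of 2 lineages.

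As a share of kept cells, B cells were 0.898% (0.186 to 2.60%) of the control and 7.42% (4.65 to 11.1%) of the N1ICD-EGFP plate, and these intervals do not overlap. T cells were 2.10% (0.847 to 4.27%) and 3.53% (1.71 to 6.40%), and macrophages 2.99% (1.45 to 5.44%) and 4.95% (2.73 to 8.16%). Both of these pairs of intervals overlap. Among leukocytes alone, B cells were 12.5% (2.66 to 32.4%) of the control and 40.4% (27.01 to 54.9%) of the N1ICD-EGFP members, T cells 29.2% (12.6 to 51.1%) and 19.2% (9.63 to 32.5%), and macrophages 41.7% (22.1 to 63.4%) and 26.9% (15.6 to 41.02%). All 3 pairs overlap on this denominator.

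**Figure D1:**
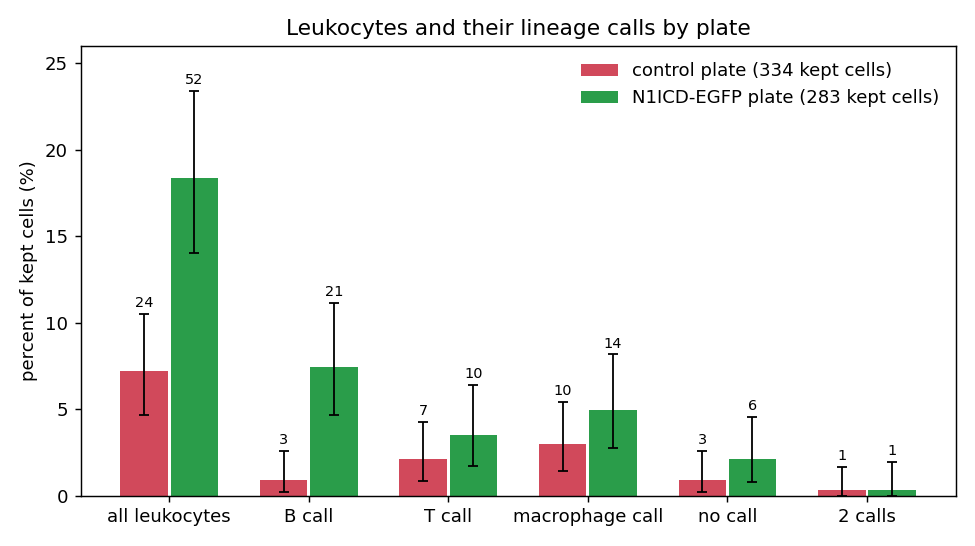
Percent of kept cells (vertical axis) that were leukocytes or carried each lineage call, in the control and N1ICD-EGFP plates, with 95% Clopper-Pearson intervals that cover counting error only. Leukocytes were 7.19% and 18.4%, and the B cell bars, 0.898% and 7.42%, are the lineage bars whose intervals do not overlap.

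Over all lineages together, leukocytes had a lower median of detected genes than the other cells of their plate, but not in every lineage. The control members had 62996 to 461111 reads (median 207726.5) and a median of 3190 genes, and the N1ICD-EGFP members had 139563 to 614032 reads (median 339930) and a median of 2193 genes. With each cell thinned to 50000 reads, the medians were 2743 and 1700 genes, against 3119.5 and 2094 in the other cells. N1ICD-EGFP B cells had a median of 1319 genes after thinning, T cells 1593.5, macrophages 2516 and the uncalled cells 2517.5, so that the last 2 groups lay above the other cells of that plate. Control T cells had 2559 and control macrophages 2904.5. Within both T cells and macrophages the N1ICD-EGFP cells thus showed fewer genes at equal depth, as did the other cells of that plate.

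EGFP reads were rare in leukocytes and common in the other cells of the N1ICD-EGFP plate. A read of eGFP was found in 0 of 24 control leukocytes (interval 0 to 14.25%) and in 2 of 52 N1ICD-EGFP leukocytes (3.85%, interval 0.469 to 13.2%). In the other cells it was 17.7% in the control plate, where no cell had more than 2 reads, and 39.4% in the N1ICD-EGFP plate. At 5 or more eGFP reads the counts were 1 of 52 leukocytes and 80 other cells (34.6%) of the N1ICD-EGFP plate, and no control cell of any kind. Thinned to 50000 reads, 1 of 52 leukocytes and 78 other cells (33.8%) of that plate kept a read, against 6.13% of the other control cells. The leukocyte with 13 eGFP reads was the T cell of well G14, and the other had 1 read. The control reporter, tdTomato, has no row of its own in the table.

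Epithelial reads were found in some members. At least 2 of Epcam, Krt8 and Krt18, which encode an adhesion protein and keratins of luminal cells, were at 50 CPM in 5 of 24 control leukocytes (20.8%) and 2 of 52 N1ICD-EGFP leukocytes (3.85%). The same held for 98.1% and 95.7% of the other cells. The T cell of well G14, with the eGFP reads, had Epcam at 2662.8 and Csn3, a casein, at 9452.4 CPM. The T cells in N1ICD-EGFP well L12 and in control wells B8 and I10 had Epcam at 2225.3, 1993.4 and 1507.6 CPM. Such wells hold RNA of both kinds, and whether they received 2 cells was not tested. The 8 milk protein genes together had a median of 147.2 CPM (17.5 to 3677.7) in control macrophages and 2.85 CPM (0 to 28.3) in N1ICD-EGFP macrophages. In the other cells the medians were 32801.5 and 2970.4 CPM, so the level in the leukocytes was higher on the plate where it was higher in the epithelium.

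Each lineage also carried its own genes beyond those of the rule, given here as a description since the cells were chosen on related genes. Of 18 B cell genes, the B cells had a median of 11 (9 to 13) in the control and 12 (8 to 16) in the N1ICD-EGFP plate at 20 CPM, and T cells and macrophages had a median of 1. Of 19 T cell genes the T cells had a median of 12 in both plates (6 to 17 and 9 to 15), against at most 1 in the other lineages. Of 24 macrophage genes the macrophages had a median of 11 (0 to 18) and 14.5 (7 to 23). Of 8 neutrophil genes, B and T cells had none with a read, the control macrophages had a median of 0 (0 to 1) at 20 CPM, and the N1ICD-EGFP macrophages had a median of 1 (0 to 2). Their summed level was 0 to 709.5 CPM (median 0) in the control macrophages and 0 to 1890.8 CPM (median 517.4) in the N1ICD-EGFP macrophages. It came mainly from Csf3r and Mmp9, whereas S100a8 and S100a9 had no read in any leukocyte. The red blood cell genes had a median of 0 in each lineage. Cells that were no members had a median of 1 of 14 further leukocyte genes.

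The 10 genes with the highest ratio of B cells to the other lineages included receptors of the B cell surface. Faim3, the receptor for IgM, was at 20 CPM in 20 of 24 B cells and in 0 of 41 other called cells, Cd22 in 19 and 0, and Fcer2a, the low-affinity receptor for IgE that marks follicular B cells, in 18 and 0. Fcrl1 and Tnfrsf13c, the receptor for the survival factor BAFF, were each in 12 and 0, and Mzb1, a chaperone of antibody assembly, was in 16 and 0. Cd79b, the partner chain of Cd79a, was in 23 B cells and 3 others.

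For T cells the leading genes included chains of the receptor, surface proteins, an adaptor and transcription factors. Cd3e was at 20 CPM in 17 of 17 T cells and in 0 of 48 other called cells. Cd6 was in 10 and 0, Cd5 in 11 and 0, Fam189b in 9 and 0, Lef1, a transcription factor of resting T cells, in 10 and 0, Cd247 in 11 and 1, Tcf7 in 12 and 1, and the adaptor Lat in 15 and 2. For macrophages, Lyz2, which encodes lysozyme, was in 23 of 24 and 1 of 41, the chemokine gene Ccl6 in 22 and 1, Ccl9 in 19 and 0, Alox5ap in 18 and 0, Pla2g7 in 17 and 0, C1qc in 14 and 0, C1qa in 13 and 0, and F13a1 in 12 and 0.

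**Figure D2:**
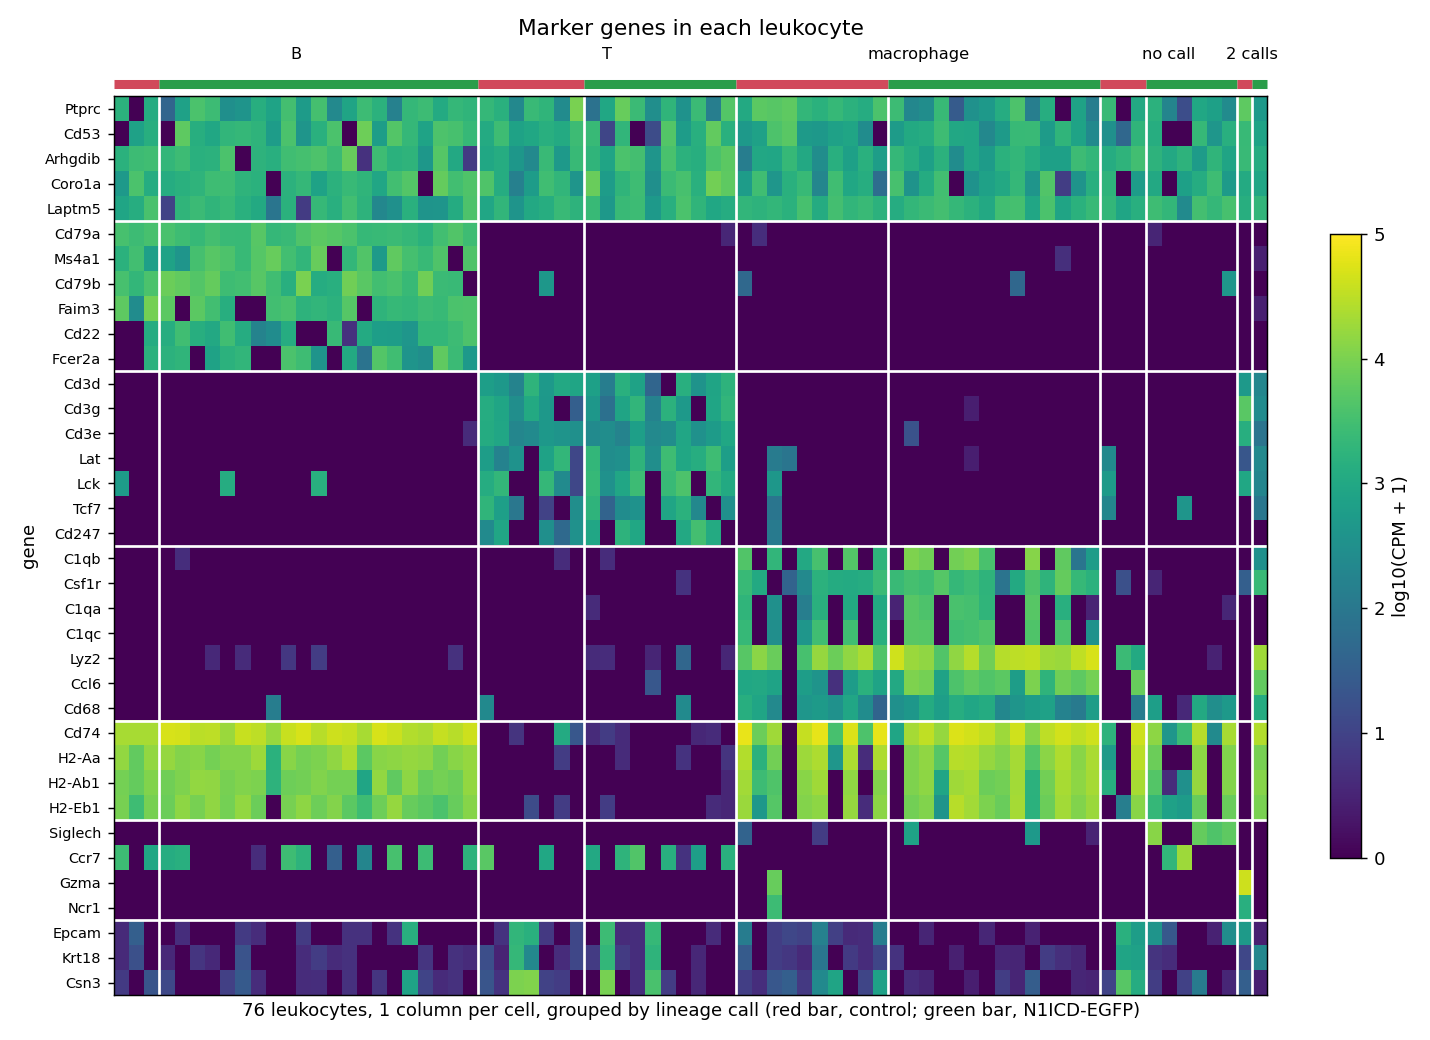
Level of marker genes (rows) in each of the 76 leukocytes (columns, grouped by lineage call, with a red bar for control and a green bar for N1ICD-EGFP cells), shaded by log level in CPM. B, T and macrophage genes form separate blocks, and the MHC class II genes are bright (high) in both B cells and macrophages and dark (low) in T cells.

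Genes of antigen presentation divided the lineages. MHC class II molecules show peptides to CD4 T cells and are built from an alpha chain (H2-Aa) and beta chains (H2-Ab1, H2-Eb1), with Cd74 as the chaperone chain that fills the groove. Summed over 10 class II genes, the median was 62535.5 CPM in control and 74735.8 CPM in N1ICD-EGFP B cells, and 59908.5 and 72250.3 CPM in macrophages. In T cells it was 31.99 and 6.60 CPM, and in cells that were no leukocytes 6.28 and 8.21 CPM. H2-Aa did not exceed 6.648 CPM in any T cell. In B cells H2-Aa was at 15632, 15782 and 6286.1 CPM in the 3 control cells and had a median of 12731.2 CPM (highest 25195.1) in the N1ICD-EGFP cells. In macrophages its summed level was 13150 CPM in the control and 15464 CPM in the N1ICD-EGFP plate.

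The stretches just upstream of H2-Aa and H2-Eb1 are shown because these genes were high together in B cells and macrophages and near 0 in T cells. Both are on mouse chromosome 17, from RefSeq for GRCm38.p6, and are the 150 bases that end before the annotated start, read 5′ to 3′ on the gene's strand. The H2-Aa window is chr17:34287824-34287973 on the minus strand and the H2-Eb1 window chr17:34305717-34305866 on the plus strand. Capitals mark CCAAT, or ATTGG where it is on the other strand. CCAAT is a box that is well known from class II promoters.
H2-Aa: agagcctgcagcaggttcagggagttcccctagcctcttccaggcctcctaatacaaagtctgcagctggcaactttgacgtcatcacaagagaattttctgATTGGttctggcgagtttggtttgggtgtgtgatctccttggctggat
H2-Eb1: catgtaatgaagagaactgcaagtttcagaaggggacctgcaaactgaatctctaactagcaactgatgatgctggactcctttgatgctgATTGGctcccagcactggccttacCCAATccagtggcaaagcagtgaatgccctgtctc
H2-Aa holds 1 match, 43 bases before the start, and H2-Eb1 holds 2, at 54 and 30 bases. CCAAT on either strand is in 8047 of 32851 such windows (24.5%), so a match is common. ATTTGCAT, the octamer letters known from B cell genes, is in 0.998% of windows and GAGGAAGT, letters bound by the factor PU.1, in 1.63%. The windows of H2-Aa, H2-Eb1, Cd79a (chromosome 7) and Cd3g (chromosome 9) hold neither. Matches describe the letters and do not show binding.

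B cells had the most uneven numbers, 3 against 21, and were not compared gene by gene between plates because fewer than 5 were available in the control. Cd79b, the partner of the gene that chose them, was at 3798.9, 3550.9 and 2000.1 CPM in the control cells of wells N14, M10 and N12. In the 21 N1ICD-EGFP cells Cd79b ranged from 0 to 9801.8 CPM with a median of 3040.5, and 20 reached 20 CPM. All 3 control cells lay within that range. Faim3 was at 8996.3, 5626.9 and 269.9 CPM in the same wells against a median of 2280.1 CPM (0 to 5553.8), so 2 control cells lay above all 21. The remaining one, in well N12, lay within their range.

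Receptors of mature B cells were found in most N1ICD-EGFP cells. Fcer2a was at 20 CPM in 17 of 21 (median 1111.4, highest 5906.5 CPM) and Cd22, an inhibitory receptor of B cells, in 18 (median 1229.2, highest 4004.4 CPM). Cr2, the complement receptor CD21, was in 10 of 21, with a highest level of 3445.2 CPM. Bank1, a scaffold of B cell receptor signalling, was in 15, and Ly6d, a surface protein of the B lineage, in 20 (median 1929.6 CPM). In the control, well N14 had Fcer2a at 1616.8, Cd22 at 1229.9 and Cr2 at 59.51 CPM, and the other control cells had 0 reads of all 3 genes. Of 7 genes of antibody-secreting plasma cells, the control B cells had 2 each at 20 CPM, and the N1ICD-EGFP B cells a median of 1 (0 to 3), with summed levels of 1388.6 to 2526.2 CPM and 0 to 2107.2 CPM. Irf4, a transcription factor of activated B cells and plasma cells, was at 1125.4, 1650.9 and 228.1 CPM in the control cells and in 7 of 21 N1ICD-EGFP cells (highest 1696.7 CPM). Mzb1 was in 3 of 3 and 13 of 21 cells, and Xbp1 in 0 and 7. Igj, Sdc1, Prdm1 and Tnfrsf17 had no read in any B cell. The deposited gene names hold no row for the immunoglobulin constant genes looked for, so class was not read.

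A few further genes set the small control group beside the larger one, and these were picked after their values had been seen. Ctss, which encodes cathepsin S, the protease that trims the invariant chain, had no read in the 3 control B cells, too few to set a useful limit. It was at 20 CPM in 19 of 21 N1ICD-EGFP B cells, with a median of 1555.9 and a highest level of 8674.6 CPM. Rbpj, the DNA-binding partner of the Notch intracellular domain, ran the other way: 206.4, 188.5 and 109.6 CPM in the control cells and 3.143 CPM in a single N1ICD-EGFP cell, with 0 in the other 20. Notch2, the receptor that marginal zone B cells require, was at 136.2, 79.35 and 15.87 CPM in the control and in 15 of 21 N1ICD-EGFP cells at 20 CPM (median 562.2, highest 1477.8 CPM). Nrarp, a Notch target, had no read in any B cell, and Hes1, another target, was at 20 CPM in 1 of 3 and 2 of 21.

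Activation and stress genes varied as much within a plate as between them. Cd69, which holds lymphocytes in tissue and is induced within hours of activation, was at 6298.4, 3038.5 and 206.4 CPM in the control B cells. In the N1ICD-EGFP cells it ranged from 0 to 8626.9 CPM with a median of 54.88, and 13 of 21 reached 20 CPM. Fos was at 5693.4, 6160 and 1714.4 CPM, against 4.106 to 10039.8 CPM with a median of 1971.8. For both genes the control values lay inside the range of the larger group. Immediate early genes such as Fos are also induced by enzymatic dissociation of tissue, and its part here was not tested.

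T cells held both helper and cytotoxic cells in each plate. Cd4 without Cd8a or Cd8b1 was found at 20 CPM in 2 of the 7 control T cells and 5 of the 10 N1ICD-EGFP T cells, and Cd8a or Cd8b1 without Cd4 in 3 and 3. Neither was found in 2 cells of each plate, and no cell had both. In the control, Cd4 was at 1841.6 CPM in well M3 and 962.8 CPM in well I10, and in the N1ICD-EGFP plate it ran from 198.9 to 2759.9 CPM in the 5 cells that had it. Foxp3, the transcription factor of regulatory T cells, was at 2041, 527 and 38.01 CPM in 3 control cells and at 2739.8 and 332.9 CPM in 2 N1ICD-EGFP cells. Foxp3 was thus found in both plates at like levels in its highest cells. The cells at 527 and 332.9 CPM, in wells A23 and G14, had Cd8b1 at 1286 and 152.8 CPM and Cd4 below 20 CPM. Well G14 also held epithelial and eGFP reads, and control well I10, with Foxp3 at 38.01 CPM, held epithelial reads.

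For the comparison of plates, the reads of the cells of a lineage were added up, scaled to CPM, and set as a log2 ratio of N1ICD-EGFP over control after adding 1 CPM. Of 5611 genes compared in T cells, 34.9% were at least 2-fold higher and 32.2% at least 2-fold lower in the N1ICD-EGFP cells. Taking the median over cells in place of the sum turned this to 21.4% higher and 54.6% lower of 1367 genes. With 7 and 10 cells and single-cell detection, a 2-fold ratio is therefore the common case and a list has to be read against these shares. Only genes at 50 CPM or more in either plate were compared, so a gene may enter through the plate where it is high. The T cell list itself had 2 of 19 genes higher and 3 lower, with a median log2 ratio of 0.15, against 0.12 over all genes. T receptor signalling genes had 2 of 10 higher and 1 lower (median 0.05), and MHC class I genes 1 higher and 1 lower of 9 (median -0.11). The shares of called genes in these lists were below those over all genes.

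Genes of the receptor and its signalling did not share a direction. Cd3e, a receptor chain that the rule did not use, ranged from 198.4 to 1173 CPM in the control cells (median 382.3) and from 170.4 to 966.4 CPM in the N1ICD-EGFP cells (median 314.3). The log2 ratio of Cd3e was -0.38. Cd247, the zeta chain of the receptor, was at 20 CPM in 5 of 7 and 6 of 10 cells, with medians of 250.3 and 928.4 CPM and summed levels of 366.2 and 918.7 CPM, which is 2.51-fold higher in the N1ICD-EGFP cells. Lat was at 20 CPM in 5 of 7 control T cells and 10 of 10 N1ICD-EGFP T cells, with medians of 349.5 and 1123.5 CPM and a log2 ratio of 0.80. Lck, the kinase that phosphorylates the receptor, had a ratio of 0.15, and Tcf7, a factor of naive and memory cells, of 0.10. Both groups of cells overlapped for all 5 genes.

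Cytotoxic and innate lymphocyte genes were lower in the N1ICD-EGFP T cells. Of 16 such genes, 11 were compared, of which 9 were at least 2-fold lower and none higher, with a median log2 ratio of -3.40. Over all genes compared, 32.2% were lower, and a gene could enter through the control plate alone. Ccl5, a chemokine of effector and memory T cells, was at 11665.1, 6532 and 3242.3 CPM in 3 control cells (wells P10, A23 and K24), and no N1ICD-EGFP T cell held a read of it. Taking 3 reads over all 10 cells as the least that could have been seen, Ccl5 was at least 3227.3-fold lower. Nkg7, a protein of cytotoxic granules, was in 4 of 7 control cells (936.9 to 3902.6 CPM) and in 2 of 10 N1ICD-EGFP cells (1394.5 and 402.3 CPM), a log2 ratio of -2.85. Xcl1, a chemokine that attracts dendritic cells, was in 3 and 0 cells, with a summed control level of 107.9 CPM. Rora was in 5 and 1 cells (-3.40). Il2rb, a chain of the receptors for interleukins 2 and 15, was in 7 and 4 cells (-0.75).

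Receptors that guide T cells into tissue followed the same direction. Of 10 chemokine receptor genes, 6 were compared, of which 4 were lower and none higher (median -2.53), against 32.2% lower over all genes. Cxcr3, the receptor for interferon-induced chemokines, was at 1290.4, 565.1, 271.9 and 94.47 CPM in 4 control cells and at 105.3 CPM in 1 N1ICD-EGFP cell, a log2 ratio of -5.37. That cell was the one of well G14, which also carried epithelial and eGFP reads. The control cell at 94.47 CPM, in well B8, carried epithelial reads too. Ccr6 was in 3 control cells (1309.7, 904.3 and 23.62 CPM) and no read in any of the other 10 T cells, which puts it at least 503.8-fold lower. Ccr7, which guides naive and central memory cells to lymph nodes, was at 20 CPM in 2 of 7 and 6 of 10 cells, with medians of 0 and 847.2 CPM and a ratio of 0.30.

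Lef1 was higher and Ctla4 lower in the N1ICD-EGFP T cells. Lef1 was at 20 CPM in 1 of 7 control cells (638 CPM) and in 9 of 10 N1ICD-EGFP cells (20.05 to 1294.1 CPM), with medians of 0 and 151.3 CPM and a log2 ratio of 1.90. Ctla4, an inhibitory receptor that regulatory and activated T cells carry, was in 5 of 7 control cells (95.97 to 5532.3 CPM) and in 1 of 10 N1ICD-EGFP cells (288.7 CPM, again well G14), a ratio of -5.86. Il7r, the receptor for the survival factor interleukin 7, was in 7 of 7 and 8 of 10 cells (-1.30), so it was lower, unlike Lef1, whereas Tcf7 and Ccr7, above, were within 2-fold. The ranges of the plates overlapped for all 3 genes.

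The interferon response genes that could be compared were higher in the N1ICD-EGFP T cells. All 7 such genes compared, of 15, were at least 2-fold higher, with a median log2 ratio of 5.09. Over all genes compared, 34.9% were higher. A gene could enter through the N1ICD-EGFP plate alone, where it is high, so the shared direction is no independent evidence. Bst2, which tethers budding viruses to the cell, was at 20 CPM in 0 of 7 control T cells and 5 of 10 N1ICD-EGFP T cells, with a log2 ratio of 5.08. Several of the others rest on few cells: Ifit1 was at 2172.7 and 1307.8 CPM in 2 N1ICD-EGFP cells and at 3.195 CPM in another, Ifit3 in 2 cells and Usp18 in 2. Added up per cell, the 15 interferon genes came to 208.2 to 1241.7 CPM (median 623.5) in the control cells and to 12.8 to 11326.8 CPM (median 1995.1) in the N1ICD-EGFP cells, so the plates overlap.

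The 10 genes highest and the 10 lowest in ratio were mostly found in 1 plate alone. The genes highest in the N1ICD-EGFP cells included Fam78a, with 5 cells from 41.54 to 2682.5 CPM and no control read, and Smap1, a regulator of vesicle traffic, with 8 cells and no control read. Creb3, Adprm, H2-T24, Gdpd3, Secisbp2, Ythdf2, Pgs1 and Smg5 completed this group. The lowest was Tnfaip8, a gene induced by tumour necrosis factor, in 5 of 7 control cells (median over all 7 cells 321.2, highest 1273.1 CPM) and with no N1ICD-EGFP read. Ap1s2, Taf4b, Pibf1, Med8, Vps13b, Mrps30, Simc1, Emc3 and Focad followed. These genes share no list used here.

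**Figure D3:**
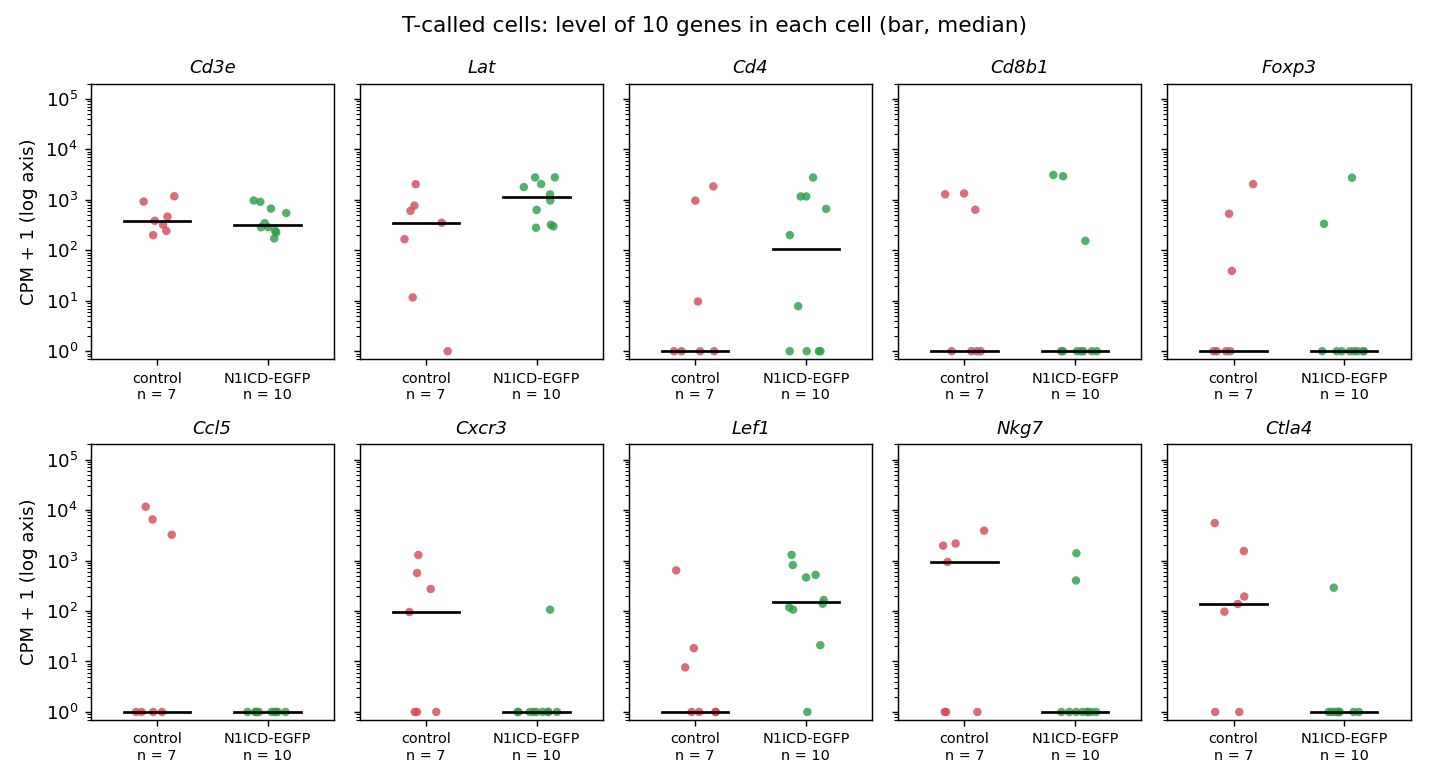
Level of selected genes in each T cell (1 point per cell, CPM + 1 on a log axis) in the control (7 cells) and N1ICD-EGFP (10 cells) plates, with a bar at the median. Ccl5 is at the bottom of the axis in all 10 N1ICD-EGFP cells, whereas the points of Lef1 lie above 20 CPM in 9 of them and in 1 of 7 control cells.

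Macrophages differed between plates in several of their known genes. Most genes of alternative activation, Retnla, Cd163 and Mrc1 among them, and Folr2 were higher in the N1ICD-EGFP cells, and Mmp12, Itgax and inflammatory cytokine genes were lower. Over 4972 genes compared, 24% were at least 2-fold higher and 30.6% at least 2-fold lower in the N1ICD-EGFP macrophages. MHC class II, lysosomal and MHC class I genes stayed near the median over all genes, which was -0.15.

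Of 9 genes of alternative activation, 7 were higher and 1 lower, with a median log2 ratio of 4.40. Retnla, a secreted protein induced by interleukin 4, had no read in the 10 control macrophages. In the N1ICD-EGFP plate, 8 of 14 cells lay between 15579.7 and 47678.5 CPM, the cell of well O11 had 43.55 CPM, 2 cells had 2.282 and 2.141 CPM and 3 had none. Retnla was thus either very high or near 0, and at least 14961.4-fold higher over the group. Retnla lies on chromosome 16 (48842609 to 48844461 in GRCm38.p6).

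Other members of that list had the same direction. Mrc1, the mannose receptor CD206, was in 3 of 10 control cells (709.5, 651.4 and 69.92 CPM) and in 10 of 14 N1ICD-EGFP cells (233.6 to 4389.2 CPM), a log2 ratio of 3.11. Mgl2, a lectin of macrophages and dendritic cells, was in 2 and 9 cells (6.07), and the related Clec10a in 3 and 9 (4.05). Ccl24, an attractant of eosinophils, was in 0 and 7 cells and at least 235.7-fold higher. Chil3 was in 2 and 2 cells, and its summed level of 1619.2 against 75.53 CPM came mainly from 1 cell, in well A18, at 22217.5 CPM. The exception was Arg1, which was in 2 control cells, with 2137.8 CPM in well G2, and had no N1ICD-EGFP read. Well G2 had 0 of the 24 macrophage genes. With it and well E18, a macrophage call that carried lymphoid genes, left out, Arg1 was too low to be compared, and the median of the other 8 genes was 5.045.

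Folr2, Cd163, Lyve1 and Pf4, all from the macrophage list, were found at 20 CPM in no control macrophage and in 6 to 8 of the 14 N1ICD-EGFP macrophages. Other genes that tissue macrophages carry were in both plates: Apoe was in 10 of 10 control cells, C1qa and C1qc in 6 and Mrc1 in 3. Folr2, a folate receptor of perivascular and tissue-resident macrophages, was at 20 CPM in 0 of 10 and 7 of 14 cells, from 424.6 to 5843.4 CPM, and at least 1353-fold higher. Cd163, the scavenger receptor for haemoglobin, was in 0 and 8 cells, from 108.5 to 3365.5 CPM, and at least 641.6-fold higher. Lyve1, the hyaluronan receptor, was in 0 and 6 cells, with a highest level of 6353.7 CPM. Pf4 was below 20 CPM in all control cells (highest 19.98 CPM) and in 7 N1ICD-EGFP cells (469 to 3687.1 CPM), a log2 ratio of 8.45. No control cell reached the lowest of the N1ICD-EGFP cells that had the gene. The other N1ICD-EGFP cells were below 20 CPM, as the control cells were.

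Several secreted proteins and proteases shared this pattern. Cfp, or properdin, which stabilises the complement convertase, was in 0 of 10 and 12 of 14 cells (83.47 to 4845 CPM, median over all 14 cells 1680.1) and at least 1885.7-fold higher. F13a1, a clotting factor subunit made by macrophages and monocytes, was in 1 control cell at 79.91 CPM and in 11 N1ICD-EGFP cells from 501 to 5159.2 CPM (8.81). Mmp9, the gelatinase B gene, which the neutrophil list also holds, was in 0 and 7 cells and at least 461.1-fold higher. Csf3r, from the same list, was in 3 and 7 cells with a ratio of 0.55, and S100a8, S100a9, Cxcr2, Camp and Ngp had no read in these cells. Cbr2 had 2 control reads in all and was in 7 N1ICD-EGFP cells, Cd209f and Pmp22 had no control read, and Capg, an actin-capping protein, was in 0 and 12 cells.

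Complement genes were also higher. Of 7 compared, 5 were at least 2-fold higher and none lower (median log2 ratio 1.92). C1qa, the A chain of C1q, was in 6 of 10 and 7 of 14 cells, with highest levels of 1908.5 and 5009.9 CPM, and a log2 ratio of 1.67. C1qc was in 6 and 8 cells (0.94), and C5ar1 had a ratio of 1.92. The ratio of C3, 3.22, came mainly from the N1ICD-EGFP cell of well A18, at 3881.3 CPM. C1qa and C1qc lie beside C1qb, which helped to choose these cells, so they are not independent of the rule.

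Of the 24 macrophage genes, 12 were higher and 3 lower (median 0.999). Lyz2 had medians of 7424.1 CPM in the control cells and 23147.3 CPM in the N1ICD-EGFP cells, which gave a log2 ratio of 1.24, with ranges of 0 to 23049.7 and 4301 to 49949.8 CPM that overlap. The chemokine genes Ccl6 (8 and 14 cells, 3.04) and Ccl9 (7 and 12 cells, 3.50) were higher. Ifitm3, an antiviral membrane protein, was in 6 of 10 and 14 of 14 cells (1.45). Apoe was in 10 and 9 cells with a ratio of -0.15, Cd68 in 9 and 14 with 0.22, and Tyrobp, an adaptor of activating receptors, had -0.34. Lower were Fcgr1 (-1.97), Trem2 (-1.84) and Ms4a7 (-1.58).

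**Figure D4:**
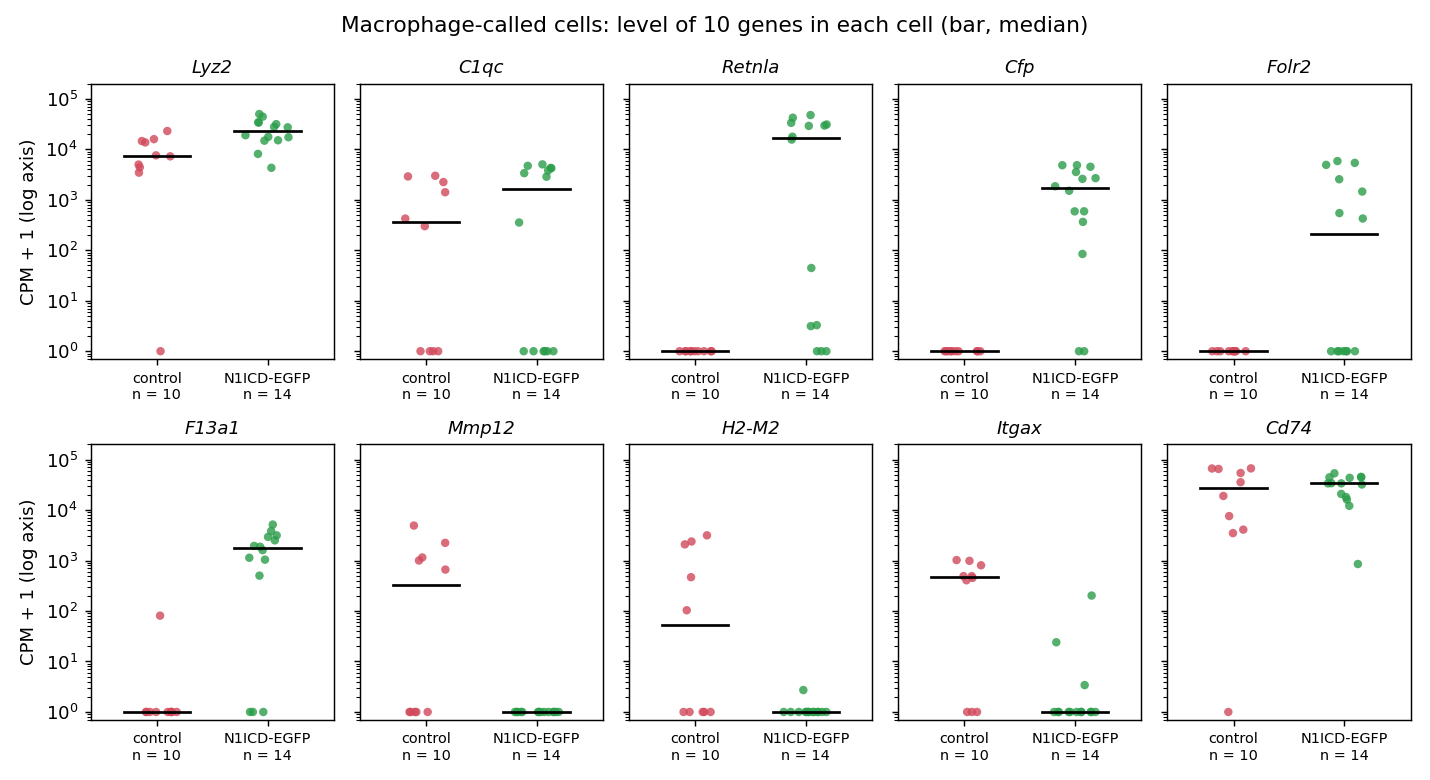
Level of selected genes in each macrophage-called cell (1 point per cell, CPM + 1 on a log axis) in the control (10 cells) and N1ICD-EGFP (14 cells) plates, with a bar at the median. Retnla, Cfp and Folr2 lie at the bottom of the axis in all control cells, and Mmp12 in all N1ICD-EGFP cells.

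Lower in the N1ICD-EGFP macrophages were a protease, an integrin and cytokines of inflammation. Mmp12, the macrophage elastase, was at 4927, 2237.2, 1148.7, 1000.4 and 660.4 CPM in 5 of 10 control cells and had no read in the 14 N1ICD-EGFP cells. Itgax, which encodes CD11c, was in 7 control cells (405.3 to 1019.7 CPM) and in 2 N1ICD-EGFP cells (201.3 and 23.02 CPM), a log2 ratio of -4.94. H2-M2, a non-classical MHC class I gene, was in 5 control cells from 102.5 to 3156.5 CPM and had 1 read in the other plate. Cyfip2 was in 6 and 0 cells and Slc40a1, the iron exporter ferroportin, in 3 and 1 (-7.23). The highest N1ICD-EGFP value of Itgax was below the lowest of the 7 control cells that had it, but both plates held cells below 20 CPM.

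Cytokine genes were divided. Of 17 compared, 10 were at least 2-fold lower and 6 higher, with a median of -1.61. Il1b was in 6 control cells (7036.4, 5374.1, 2910.7, 1635.9, 307.6 and 70.04 CPM) and in 3 N1ICD-EGFP cells (1544.4, 1180.9 and 154.1 CPM), a log2 ratio of -2.95. Il1a was in 4 and 0 cells and at least 510.7-fold lower. Tnf was in 6 and 3 cells (-3.53), Ccl3 in 6 and 2 (-3.39), and Ccl4 had -2.40. The chemokine genes Ccl2 (3.18) and Ccl8 (0 and 4 cells) were higher, as Ccl6 and Ccl9 above.

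**Figure D5:**
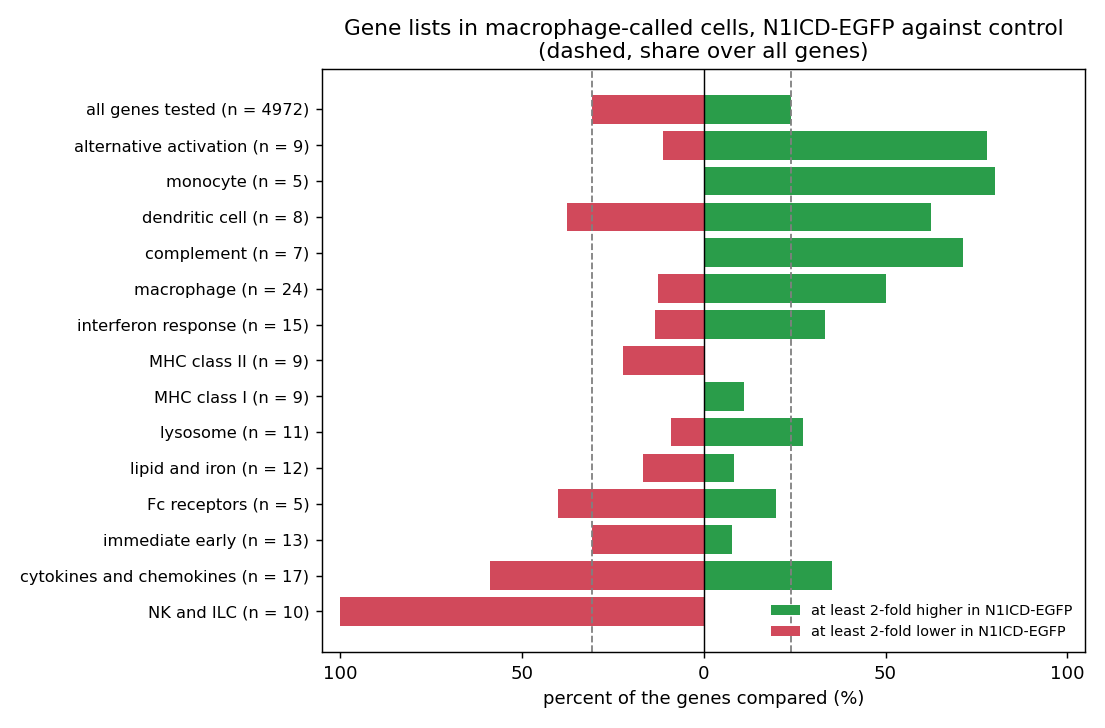
Percent of the compared genes of each list (horizontal axis, percent) that were at least 2-fold higher or lower in N1ICD-EGFP than in control macrophages, with dashed lines for the shares over all genes. Alternative activation (7 of 9 genes higher) and complement (5 of 7 higher) lie beyond the share over all genes of 24%, and cytokines (10 of 17 lower) beyond 30.6%.

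Antigen presentation did not follow these differences. Of 9 class II genes compared, none was higher and 2 were lower, with a median log2 ratio of 0.01. Cd74 had summed levels of 32412 and 30993 CPM (-0.06) and H2-Aa a ratio of 0.23. Within each plate H2-Aa spread widely, from 0 to 26981 CPM in the control and from 0 to 28519.1 CPM in the N1ICD-EGFP cells. Lysosomal genes had 3 of 11 higher and 1 lower (0.25), genes of lipid and iron handling 1 of 12 higher and 2 lower (-0.24), and Fc receptors 1 of 5 higher and 2 lower (-0.31). Interferon response genes had 5 of 15 higher and 2 lower (0.55). The monocyte list had 4 of 5 genes higher, F13a1 among them, and the dendritic cell list 5 of 8 higher and 3 lower. These lists share genes with the alternative activation list: Chil3 with the monocyte list, and Mgl2 and Clec10a with the dendritic cell list. Retnla, Mrc1 and Cd163 are in the macrophage and alternative activation lists, and C1qa and C1qc in the macrophage and complement lists. The list results are thus not independent of each other. Immediate early genes had 1 of 13 higher and 4 lower (-0.75), with Fos at -0.30 and Nr4a1 at -2.35.

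The macrophage calls of each plate held more than 1 kind of cell. A split by C1qc at 20 CPM, set after the values had been seen, put 6 of 10 control and 8 of 14 N1ICD-EGFP cells on the C1qc side. Among these, Cd163, Cfp, F13a1, Mrc1 and Mgl2 were in 8 of 8 N1ICD-EGFP cells, and in 0, 0, 1, 3 and 2 of 6 control cells. Retnla, Folr2, Mmp9, Pf4 and Cbr2 were in 7 of 8 and 0 of 6. In the opposite direction, Itgax was in 6 of 6 control cells and 0 of 8 N1ICD-EGFP cells, Mmp12 and H2-M2 in 5 and 0, and Il1b in 4 and 0. Apoe was in 6 of 6 and 7 of 8. Most of these genes were named because they differed between the plates, so counting them again in part of the same cells adds no independent evidence. The 6 control cells include well E18, which also carried lymphoid genes. The split used genes related to the rule, so this is a description.

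The cells without C1qc were fewer and more varied. In the N1ICD-EGFP plate, Ccr2, the receptor that brings monocytes out of the blood, was in 5 of these 6 cells and Ly6c2, a surface protein of classical monocytes, in 3, at 4599.1, 4241.7 and 1839 CPM. Ly6c2 had no read in any control macrophage. Il1b was in 3 of the 6, the 3 N1ICD-EGFP cells that had it. In the control plate, Ccr2 was in 2 of 4 and Il1b in 2 of 4. The Ccr2 cells were those of well K15, at 82.69 CPM, and well G2, at 3123.2 CPM. Well G2 had 0 of the 24 macrophage genes at 20 CPM.

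Some control macrophage calls carry genes of other lymphoid cells. The cell of well E18, called by C1qb at 1984 CPM, had Gzma at 6990.2 and Ncr1 at 2659.6 CPM, a granule protease and a receptor of natural killer cells, together with 11 genes of the list of cytotoxic and innate lymphocytes. The cell of well G2, called by Csf1r at 37.69 CPM, had no read of Lyz2, 0 of the 24 macrophage genes at 20 CPM, and Il7r at 3683 CPM. All 10 cytotoxic genes compared in macrophages were lower in the N1ICD-EGFP cells (median -7.37), and without these 2 cells 1 gene of that list was left to compare. Without them, 1237 genes were higher and 1421 lower, and the median of the alternative activation genes was 5.045. Leaving them out was chosen after seeing the data.

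Notch pathway genes, the pathway that the transgene drives, gave no common direction in leukocytes. Hes1, a direct Notch target, was at 20 CPM in 7 of 10 control and 2 of 14 N1ICD-EGFP macrophages, with medians of 128.4 and 0 CPM and a log2 ratio of -1.37. Notch2 was in 9 and 14 cells (1.38) and Rbpj in 1 and 6 (4.83). In the cells that were no leukocytes Hes1 had medians of 63.5 and 338.6 CPM, higher in the N1ICD-EGFP plate. Nrarp was at 20 CPM in 1 of 52 N1ICD-EGFP leukocytes and in 59 other cells of that plate. In T cells Notch1 was at like levels, with summed levels of 128.5 and 129.6 CPM and a ratio of 0.01.

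The cells that no lineage gene called are described by their other genes. In the N1ICD-EGFP plate, 4 of 6 (wells A6, I20, P11 and M18) had Siglech, a receptor of plasmacytoid dendritic cells, which make type I interferon, between 4155.7 and 12980.9 CPM. The same 4 cells had Irf8 at 4629.4 to 7017.7, Bst2 at 2011.8 to 3444.8 and Ly6c2 at 4035.8 to 8643.8 CPM. Siglech had no read in the 3 uncalled control cells, and elsewhere among the leukocytes its highest level was 759.8 CPM. The other two, in wells F1 and G19, had Ccr7 at 1982.8 and 18659.4 and Fscn1 at 1638.4 and 1132.9 CPM, genes of dendritic cells that migrate to lymph nodes.

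The uncalled control cells carried other genes. The cell of well N17 had Cd209a at 16032.4, Mgl2 at 2589.8 and H2-Aa at 31041.1 CPM, genes that dendritic cells carry, with Epcam at 604.3 CPM. It also had Ccl6 at 6782.9, Cfp at 789.3 and Cd163 at 579.6 CPM, and held 7 of the 24 macrophage genes and 5 dendritic cell genes, so it was given no name. The cell of well B19 had 10 of the 19 T cell genes, Il7r at 1989.7, Rora at 1745.5 and Gata3 at 940.6 CPM, without Cd3d or Cd3g at 20 CPM. The cell of well I2, which just met the rule, had Epcam at 1497.2, Csn3 at 4995.8 and Lyz2 at 2505.5 CPM.

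Of the cells with genes of 2 lineages, the control cell (well E11) had Cd3g at 5368.4, Cd3e at 1361.5, Cd3d at 497 and Csf1r at 31.06 CPM. With Gzma at 41709.6, Gzmb at 7972.3, Klrb1c at 1801.5 and Ncr1 at 1413.3 CPM it held 11 genes of the cytotoxic and innate lymphocyte list beside 8 of the 19 T cell genes, so it was given no name. The N1ICD-EGFP cell (well D24) had Cd3g at 255.7 and Csf1r at 2480.8 CPM, with Foxp3 at 498.7, Lyz2 at 19346.1 and Retnla at 48212.8 CPM, and 4550 detected genes from 551430 reads. Whether this well received 2 cells was not tested. Dividing cells were rare: Mki67, a protein of cycling nuclei, was at 20 CPM in 1 leukocyte of each plate.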

How the data were processed

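The authors deposited unnormalised read counts for every gene and well, from Smart-Seq2 libraries run on a HiSeq2500. The submitters' processing notes name STAR and mm10. Which versions, counting tool, gene models and strand setting were used is not given in the sources used here. Rows sharing a gene name were added up, which gave 23997 names, and the eGFP row was set apart. Cells with at least 50000 reads and 1000 genes were kept (334 control and 283 N1ICD-EGFP), and counts were scaled to CPM per cell. No doublet caller was run, since cells were sorted singly, and a well may still hold RNA of 2 cells.

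B cells were compared by cell only. T cells and macrophages, with at least 5 cells in each plate, were summed by plate. Genes at 50 CPM or more in either plate were compared as log2 ratios with a pseudocount of 1, and called at 2-fold. No p-values were computed, since there is 1 plate per genotype and cells are not replicates. A fold against 0 reads uses a floor of 3 reads over the group. CPM is not scaled by gene length, so levels of different genes are not compared. Shares have exact Clopper-Pearson intervals at 95%.

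The members and the 37 gene lists were chosen with earlier results of these data known. Of the list genes, 339 were matched and 8 were not. The named genes are the genes of the rule, the 10 leading genes per lineage, the 10 highest and 10 lowest ratios per comparison (at 20 CPM in 50% or more of the higher plate's cells, same direction in the mean of log2 values, no predicted or ribosomal protein genes), and list members. A few more genes and the split by C1qc were picked after their values were seen. Alternatives were the cell filter, marker level, number of rule genes, thinning, epithelial reads, well columns, pseudocount, gene filter, scaling and the mean or median over cells. The calculation was run on simulated cells with planted changes, which held no plate effect and no mixed cell kinds, so it checks the calculation only. Python 3.11.15, numpy 2.4.6, pandas 2.3.3, scipy 1.17.1 and matplotlib 3.10.9 were used. Gene positions and upstream sequences are from RefSeq for GRCm38.p6.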

Additional observations from a re-analysis of the deposited data

How the results depend on the processing

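With 3 control B cells, 7 and 10 T cells and 10 and 14 macrophages from 1 plate per genotype, the number of cells limits every comparison. The leukocyte share lay between 5.66% and 8.57% in the control and between 16.96% and 19.42% in the N1ICD-EGFP plate over all settings. Of 92 alternative values of shares, 91 stayed within the counting interval. The exception was the macrophage share of control leukocytes, 20.83% when both C1qb and Csf1r were required. Gene counts followed the filter, and the shares moved less. With genes at 20 CPM, 1971 (26.1%) were higher and 2472 (32.7%) lower in N1ICD-EGFP macrophages. With genes at 100 CPM it was 631 (22.45%) and 798 (28.4%), and 1267 (33.6%) and 1187 (31.5%) in T cells. With the median of CPM over cells, which left fewer genes to compare, 437 (26.1%) were higher and 737 (44.1%) lower in macrophages, and 21.4% were higher and 746 (54.6%) lower of 1367 genes in T cells. The median log2 ratio of the dendritic cell list in macrophages turned from 3.19 to -0.47 with that median (4 genes) and was 0.0945 in well columns 1 to 12. The median of the cytokine list was -0.44 in those columns, and that of the interferon list in macrophages ran from -1.003 (both lineage genes) to 2.45 (median over cells). The cause was not tested. The 20 named genes per lineage with the highest and lowest ratios kept their direction at 2-fold or more in all 360 macrophage and 320 T cell values. They were picked for extreme ratios in these same cells, and most had no read in 1 plate. Such genes could hardly change direction, so this is no independent check. T cells within the well columns 1 to 12 or 13 to 24, and macrophages within columns 13 to 24, gave no gene comparison because a plate had fewer than 5 such cells. No paired analysis was possible because each genotype is 1 plate and no replicate is shared.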
